A study of Mus musculus with 4 samples.

Results

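Cytl1 and 9 genes of cartilage were followed in fibroblasts undergoing reprogramming, with and without activation of the kinase AKT. The 10 genes were taken by name. They were Cytl1, Sox9, Sox5, Sox6, Acan, Comp, Matn2, Hapln1, Prg4 and Cilp, out of 34816 genes or transcripts on the array (0.0287%), and all probes carrying these names were used, 13 of 55681. Cytl1 was selected on its large 4OHT difference in OSKA cells, seen earlier on these same arrays, so its differences are a description and support nothing. The other 9 were chosen as cartilage genes to set beside it, with the array values already known.

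The cells were mouse embryonic fibroblasts of several mixed male E13.5 embryos, all carrying EGFP under control of the Oct4 promoter (OE-MEFs). All 4 groups were infected with retroviruses for Oct4, Sox2 and Klf4 (OSK), and 2 of them also received AKT-MER (OSKA). AKT-MER joins myristoylated AKT to a changed estrogen receptor domain, and the kinase is switched on by the ligand 4-hydroxytamoxifen (4OHT). Each culture was given 4OHT (+4OHT) or the vehicle ethanol (-4OHT) from 3 days postinfection (dpi), and RNA was taken at 8 dpi. The groups were OSK -4OHT, OSK +4OHT, OSKA -4OHT (AKT-nonactivated) and OSKA +4OHT (AKT-activated), with 1 array each. The cultures were not sorted and not clonal, so infected and uninfected cells were measured together.

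There was no replicate, so no difference given here has a replicate check, no test between groups was possible and no p-value is given. A single slide held the 4 arrays, so a group and its place there cannot be told apart. Between 52.4% and 55.4% of spots were well above background, and no spot was saturated. The retroviral estrogen receptor part was seen by 1 Esr1 probe, which in OSKA cells exceeded OSK cells at least 219-fold when no ligand was given and at least 233-fold under 4OHT. The free-text description of the OSKA +4OHT array speaks of AKT-MER that was not activated, against its title and the design. The title was followed.

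Cartilage is a tissue of few cells in an abundant matrix. Its chondrocytes are specified by the transcription factor SOX9, which acts together with SOX5 and SOX6 on the enhancers of matrix genes such as Col2a1 and Acan. The matrix is a network of collagen fibrils filled by aggrecan, whose molecules are bound along hyaluronan chains and locked there by link proteins. Oligomeric adaptor proteins such as COMP and the matrilins tie the parts together, and lubricin covers the joint surface. CYTL1 is a small secreted protein, found in cartilage and made by chondrocytes, with a cytokine-like fold. Embryonic fibroblasts are a mixed mesenchymal culture, and fibroblasts themselves make several of these matrix proteins.

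Which sequence stood for a gene decided what could be said of it, most of all for Sox5. The first 30 of the 60 bases of the Cytl1 probe and of the 3 Sox5 probes are shown, 5′ to 3′ as on the array. The longest unbroken run of purines (A or G) in them is in capitals, or the first where several were equally long.
Cytl1 A_52_P631547: GGAGAGcaagcaccttaggaacagcaaaat
Sox5 A_55_P2156905: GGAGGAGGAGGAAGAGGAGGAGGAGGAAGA
Sox5 A_55_P2088765: ctGGGcccatgggcaaattcaatcagatgc
Sox5 A_51_P500318: ttacaagcaaaaacgtcatcAAGAAGAAGA
The brightest Sox5 probe was a run of GGA-like repeats, 60 of its 60 bases being purines. The other Sox5 probes had 41 and 40 purines. The deposited position of the repeat probe covered 27 bases of chromosome 6 (143776945 to 143776971, build NCBI37/mm9). The Cytl1 probe covered chromosome 5, 38130789 to 38130848, on the plus strand. Probes were not placed in exons or UTRs here.

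The windows around the starts of genes whose signals differed most between OSKA +4OHT and OSKA -4OHT are given next, as far as a promoter entry was at hand. RefSeq held promoter windows for 6 of the 10 genes (Cytl1, Sox5, Sox6, Acan, Hapln1 and Cilp), each of 300 bases, 250 before the start and 50 after. They are numbered in GRCm38.p6, which is not the build of the probes. ACAAT, the core of SOX motifs, is in capitals where it occurs.
Cytl1, chr5:37735269-37735568, plus strand: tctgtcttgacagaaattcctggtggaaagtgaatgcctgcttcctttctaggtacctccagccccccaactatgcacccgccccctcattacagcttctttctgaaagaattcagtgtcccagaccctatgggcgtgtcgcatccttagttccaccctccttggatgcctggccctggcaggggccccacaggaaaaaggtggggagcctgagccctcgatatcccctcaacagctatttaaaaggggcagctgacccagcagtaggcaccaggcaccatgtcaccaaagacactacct
Cilp, chr9:65264930-65265229, plus strand: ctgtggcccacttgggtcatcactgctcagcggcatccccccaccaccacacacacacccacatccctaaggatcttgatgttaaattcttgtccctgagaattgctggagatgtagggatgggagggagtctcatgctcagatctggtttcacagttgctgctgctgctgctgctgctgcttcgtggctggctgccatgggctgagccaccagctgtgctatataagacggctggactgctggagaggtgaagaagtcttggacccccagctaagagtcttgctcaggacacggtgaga
Hapln1, chr13:89540386-89540685, plus strand: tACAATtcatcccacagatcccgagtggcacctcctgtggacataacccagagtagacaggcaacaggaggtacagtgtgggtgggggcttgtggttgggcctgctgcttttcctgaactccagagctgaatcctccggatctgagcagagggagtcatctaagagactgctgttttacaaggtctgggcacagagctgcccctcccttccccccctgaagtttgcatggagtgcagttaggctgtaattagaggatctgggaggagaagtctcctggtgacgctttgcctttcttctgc
Motifs of SOX, FOXO and AP-1 factors and the TATA box were searched on both strands. The 6 genes had 11 windows in all, Sox6 having several. ACAAT was present in 5 of the 11 windows (of Sox5, Sox6 and Hapln1) and in 31.0% of the 32851 mouse promoter windows. In Hapln1 it began 249 bases before the start. GTAAACA, bound by FOXO factors, and TGANTCA, bound by AP-1, were in 0 of the 11 windows, against 3.65% and 7.81% of all windows. TATAAA was in 2 windows, both of Sox6, and in 13.6% of all. Those matches lay at -225 and, on the minus strand, at 32 from the start. Only these exact letters were counted, at any place of a window. A variant such as the tatataag in the Cilp window was not, so a TATA box is neither given to a gene nor denied to it here. These matches describe the letters of the windows and show no binding.

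Levels below are log2 intensities minus the 75th percentile of the array, so that a level of 0 is the 75th percentile. Because each probe binds its own target with its own strength, levels are compared between arrays and not between genes. Of the 13 probes, 9 were well above background on all arrays, 1 (Acan) on 3 arrays, and 3 (1 of Prg4 and 2 of Sox5) on 0 arrays. Each gene is given by its brightest probe.

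**Figure D1:**
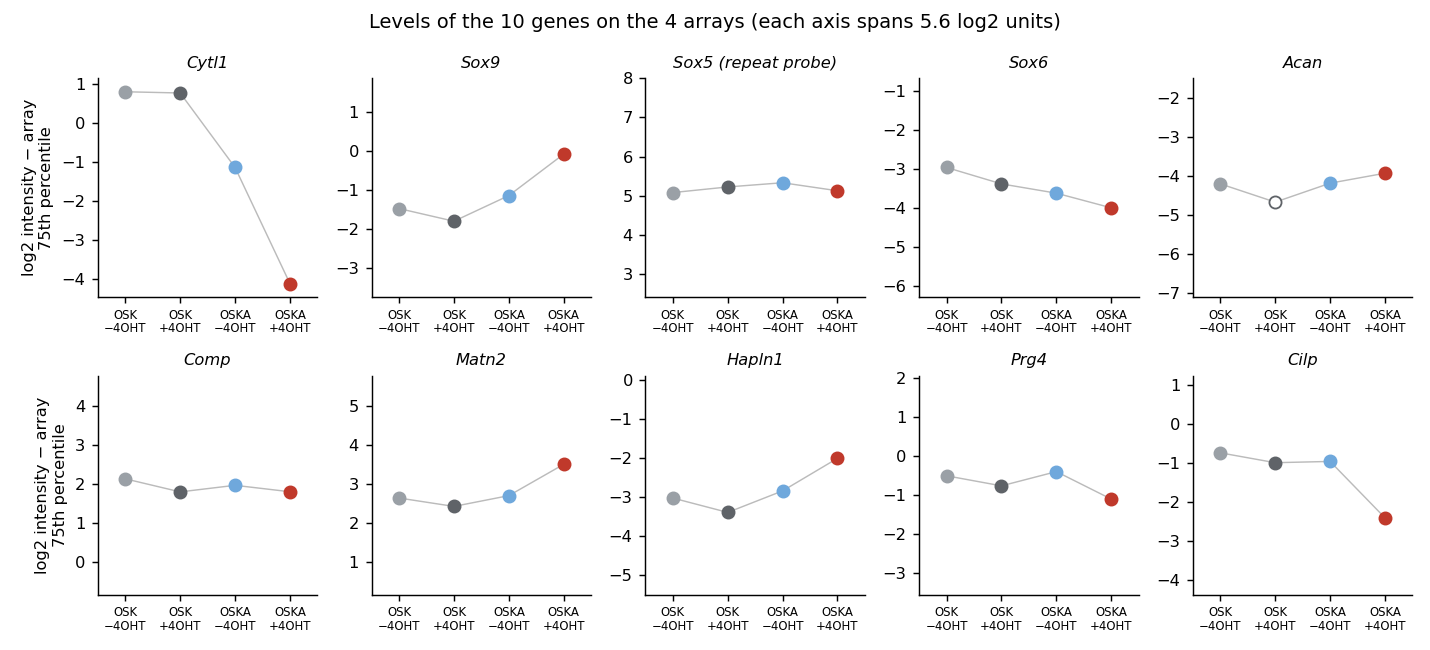
Level of each of the 10 genes on the 4 arrays (y axis, log2 intensity minus the 75th percentile of the array, every panel spanning the same range; x axis, the group, 1 array each). Open points were not well above background, and lines only join points of one gene. Cytl1 goes from 0.81 to -4.11, Sox9, Matn2 and Hapln1 are highest and Cilp and Prg4 lowest on the OSKA +4OHT array.

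Cytl1 was bright in both OSK cultures and low in both cultures with AKT-MER. Its intensity was 808 in OSK -4OHT, 645 in OSK +4OHT, 184 in OSKA -4OHT and 22.2 in OSKA +4OHT, and its levels in that order were 0.81, 0.78, -1.13 and -4.11. The signal was thus alike in the OSK cultures, lower in OSKA cells that had no ligand, and lower again where AKT was activated. It was still well above background on the array where it was lowest.

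In OSKA cells, Cytl1 was 7.87-fold lower with 4OHT than without (log2 difference -2.98, software error 0.32). Of the 20300 genes measured in that comparison, 1 was lower still. In OSK cells the 4OHT difference was -0.03 (software error 0.20). Without 4OHT, Cytl1 was 3.84-fold lower in OSKA than in OSK cells (-1.94, software error 0.21), with 12 of 20183 genes lower still. With 4OHT it was 29.6-fold lower (-4.89, software error 0.32), and 0 of 19846 genes lay below it. The software error is that of the scanner's error model for the measurement on 1 array and leaves out any variation between cultures. In bulk RNA, fewer Cytl1-expressing cells and less Cytl1 RNA per cell cannot be told apart.

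The 4OHT effect in OSKA minus that in OSK was -2.94 for Cytl1 (software error 0.38). Only 5 of 19540 genes had a lower value. The OSKA +4OHT intensity was near background, and the size of these differences changed with the background correction. With the normexp correction, which adds an offset to all signals, the 4OHT effect in OSKA was -1.40 and the AKT-MER effect with 4OHT was -2.98.

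Sox9, the regulator of the chondrocyte lineage, went the other way. Its levels were -1.48 in OSK -4OHT, -1.80 in OSK +4OHT, -1.15 in OSKA -4OHT and -0.08 in OSKA +4OHT. The AKT-activated array was the highest and OSK +4OHT the lowest. In OSKA cells Sox9 was 2.09-fold higher with 4OHT (log2 difference 1.06, software error 0.21; 0.85 with normexp, below 2-fold), and in OSK cells its 4OHT difference was -0.32 (software error 0.22). With 4OHT, OSKA cells stood 3.30-fold above OSK cells (1.72), and without it the difference was 0.33.

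The Sox9 probe (chromosome 11, 112648809 to 112648868, plus strand, NCBI37/mm9) was spotted 10 times on each array, which shows the precision of a single hybridisation. The level was -1.48 ± 0.16 (SD, n = 10 spots) in OSK -4OHT and -1.80 ± 0.08 (n = 8) in OSK +4OHT. It was -1.15 ± 0.11 (n = 10) in OSKA -4OHT and -0.08 ± 0.07 (n = 9) in OSKA +4OHT. Spots of the OSKA +4OHT array ran from -0.19 to 0.05 and did not overlap with those of the other arrays, of which the highest was -1.0. Spots of one array are not replicates of a culture.

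**Figure D2:**
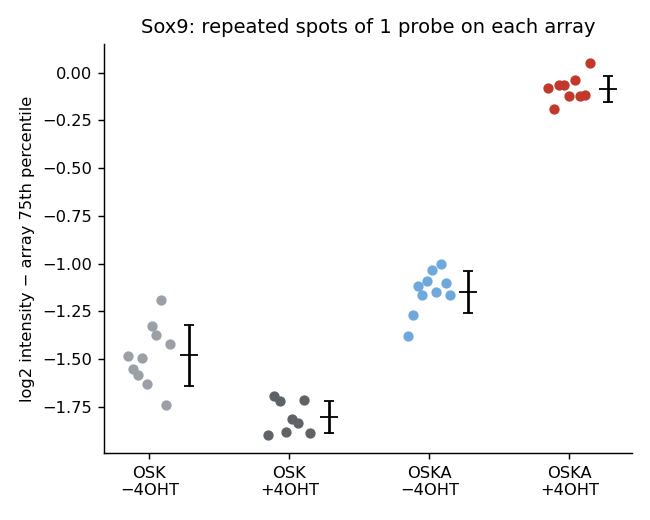
Level of every used Sox9 spot (y axis, log2 intensity minus the 75th percentile of the array) on each array (x axis), with the mean and SD over the spots at the right of each column. The 9 spots of OSKA +4OHT lie between -0.19 and 0.05, above all spots of the other arrays.

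Sox5 and Sox6 code for partners of SOX9 on cartilage enhancers. The Sox5 repeat probe had levels of 5.08, 5.22, 5.33 and 5.12 in OSK -4OHT, OSK +4OHT, OSKA -4OHT and OSKA +4OHT, so it was nearly flat. The array held 23 probes made only of purines, and 23 of them (100%) were well above background on all arrays, against 48.3% of all probes. The other Sox5 probes were well above background on 0 arrays, with levels from -6.11 to -4.54. No Sox5 level is therefore read from these arrays beyond the signal of each probe.

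Sox6 was dim, with levels of -2.97, -3.39, -3.63 and -4.0 in the same order of arrays, the lowest being AKT-activated. Its 4OHT differences were -0.38 in OSKA (software error 0.34) and -0.42 in OSK (0.28), and its AKT-MER differences were -0.66 without 4OHT (0.28) and -0.61 with it (0.34). None of these reached 2-fold. With normexp the AKT-MER differences were -0.18 and -0.20, and with spike-in scaling the one without 4OHT was -0.96.

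Aggrecan and link protein form the proteoglycan aggregate of cartilage. Acan, the gene of the aggrecan core protein, was close to background on all arrays, with levels of -4.21 in OSK -4OHT, -4.67 in OSK +4OHT (not well above background), -4.19 in OSKA -4OHT and -3.93 in OSKA +4OHT. Its difference with 4OHT in OSKA cells was 0.26, smaller than its software error of 0.37. Against the dim OSK +4OHT array only bounds could be given. There Acan was at least 1.26-fold lower than in OSK -4OHT and at least 1.53-fold lower than in OSKA +4OHT.

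Hapln1 codes for the link protein that fixes aggrecan or versican to hyaluronan. Its levels were -3.03 in OSK -4OHT, -3.40 in OSK +4OHT, -2.84 in OSKA -4OHT and -2.01 in OSKA +4OHT, again highest in AKT-activated cells. The 4OHT difference was 0.84 in OSKA (1.78-fold, software error 0.23) and -0.37 in OSK (0.28). Between OSKA and OSK cells with 4OHT it was 1.39 (2.62-fold), and without 4OHT it was 0.18. With the normexp correction the 4OHT difference in OSKA was 0.47 and the AKT-MER difference with 4OHT was 0.68, below 2-fold.

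Comp and Matn2 code for oligomeric adaptors that link collagens to other matrix molecules. Comp had levels of 2.13, 1.79, 1.96 and 1.80 in OSK -4OHT, OSK +4OHT, OSKA -4OHT and OSKA +4OHT. Its differences lay between -0.33 (4OHT in OSK) and 0.00 (AKT-MER with 4OHT), at most 1.26-fold in size. Matn2, matrilin 2, had levels of 2.64, 2.43, 2.70 and 3.51, 3 arrays being alike and the AKT-activated one higher. It was 1.74-fold higher with 4OHT in OSKA cells (0.80, software error 0.20), its difference in OSK cells was -0.22, and OSKA stood 2.11-fold above OSK cells with 4OHT (1.08).

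Prg4 and Cilp code for proteins of the joint surface and of the matrix between cells. Prg4, the gene of lubricin, had levels of -0.50, -0.76, -0.40 and -1.10 in OSK -4OHT, OSK +4OHT, OSKA -4OHT and OSKA +4OHT, lowest in AKT-activated cells. The 4OHT difference was -0.70 in OSKA (1.63-fold lower, software error 0.21) and -0.26 in OSK. Its other probe was well above background on 0 arrays.

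Cilp, the gene of cartilage intermediate layer protein, had the lowest value after Cytl1 with 4OHT in OSKA cells. Its levels were -0.74 in OSK -4OHT, -0.996 in OSK +4OHT, -0.96 in OSKA -4OHT and -2.41 in OSKA +4OHT, so that 3 arrays were alike and the AKT-activated one was low. In OSKA cells it was 2.73-fold lower with 4OHT (-1.45, software error 0.22), and 32 of 20300 genes were lower still. In OSK cells the difference was -0.25, and without 4OHT the AKT-MER difference was -0.22. Unlike that of Cytl1, whose AKT-MER difference without 4OHT was -1.94, the Cilp signal of OSKA -4OHT was within 2-fold of both OSK arrays. With normexp the Cilp difference with 4OHT in OSKA was -0.95, below 2-fold.

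**Figure D3:**
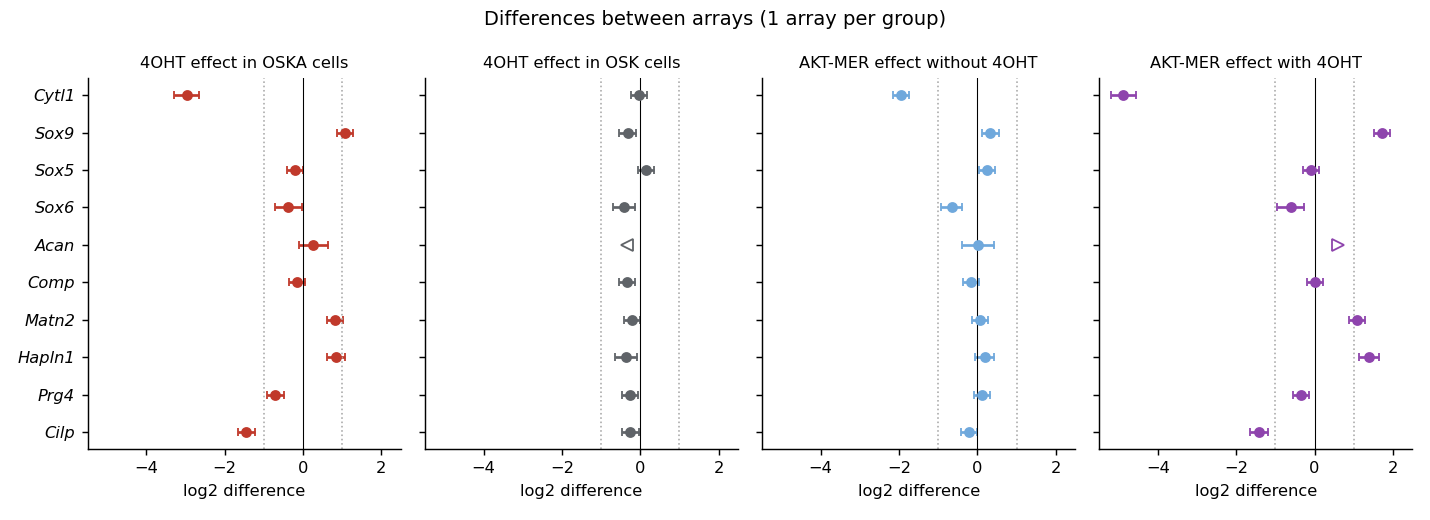
Log2 difference of each gene (x axis) in the 4 comparisons of arrays, with bars for the software error of the measurement and dotted lines at 2-fold. Open triangles are bounds for Acan, pointing away from 0. In the 4OHT effect in OSKA cells Cytl1 (-2.98) and Cilp (-1.45) lie below and Sox9 (1.06) above the dotted lines, and in OSK cells every point lies between them.

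Counted at 2-fold, 1 of the 10 genes was higher (Sox9) and 2 were lower (Cytl1 and Cilp) with 4OHT in OSKA cells. Among all 20300 genes, 2.01% were higher and 0.901% lower by that size. With normexp, Sox9 (0.85) and Cilp (-0.95) were below 2-fold, leaving 0 higher and 1 lower. Just inside the threshold stood Sox9 at 1.06, while Cilp at -1.45 lay further past it. The nearest outside were Hapln1 at 0.84 upward and Prg4 at -0.70 downward. The median over the 10 genes was -0.19, beside -0.03 over all genes, and 4 values were above 0 and 6 below. The genes did not move together. At 2 times the software error, 6 of 10 genes lay beyond it (Cytl1, Sox9, Matn2, Hapln1, Prg4 and Cilp), against 15.6% of all genes. Since the part of Cytl1 in these counts was known when it was chosen, nothing is read from them.

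Dim probes passed 2-fold more often than bright ones. The genes well above background on all arrays were split by brightness into 3 equal parts. The share at least 2-fold different in the OSKA comparison was 5.22% in the dimmest part, 2.07% in the middle and 0.645% in the brightest. Sox9, Sox6, Hapln1 and Cilp were in the dimmest part, Cytl1 and Prg4 in the middle, and Sox5, Comp and Matn2 in the brightest. Acan was not well above background on all arrays and so was in no part.

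In OSK cells, which lack AKT-MER, 0 of the 9 measured genes differed by 2-fold with 4OHT, where 0.609% of 19861 genes were higher and 0.277% lower (0.886% in all). Of the 9 values 8 were below 0, with a median of -0.26 beside 0.00 for all genes, and 0 of 9 lay beyond 2 times the software error (10.6% of all genes did). Without 4OHT, 1 of 10 genes differed by 2-fold between OSKA and OSK cells, namely Cytl1, which was lower, against 2.02% of 20183 genes (1.09% higher and 0.931% lower). Sox6 (-0.66, but -0.18 with normexp) was the other gene beyond 2 times the software error there (15.7% of all genes). With 4OHT, 5 of 9 measured genes differed by 2-fold, 3 being higher (Sox9, Matn2 and Hapln1) and 2 lower (Cytl1 and Cilp), against 3.04% of 19846 genes (1.92% higher and 1.12% lower). With normexp, Hapln1 (0.68) and Cilp (-0.92) were below 2-fold, leaving 2 higher and 1 lower. The same 5 genes lay beyond 2 times the software error, as 17.4% of all genes did. Scaled to the spike-in probes instead, 38 genes were higher and 144 lower by 2-fold in OSK cells, 61 higher and 542 lower in OSKA against OSK cells without 4OHT, and 832 higher and 265 lower in the difference of the 4OHT effects. The split of all genes in those comparisons thus depended on the scaling, where 121 and 55, 219 and 188, and 510 and 521 had been counted. These comparisons share arrays with each other, so their counts are not independent.

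**Figure D4:**
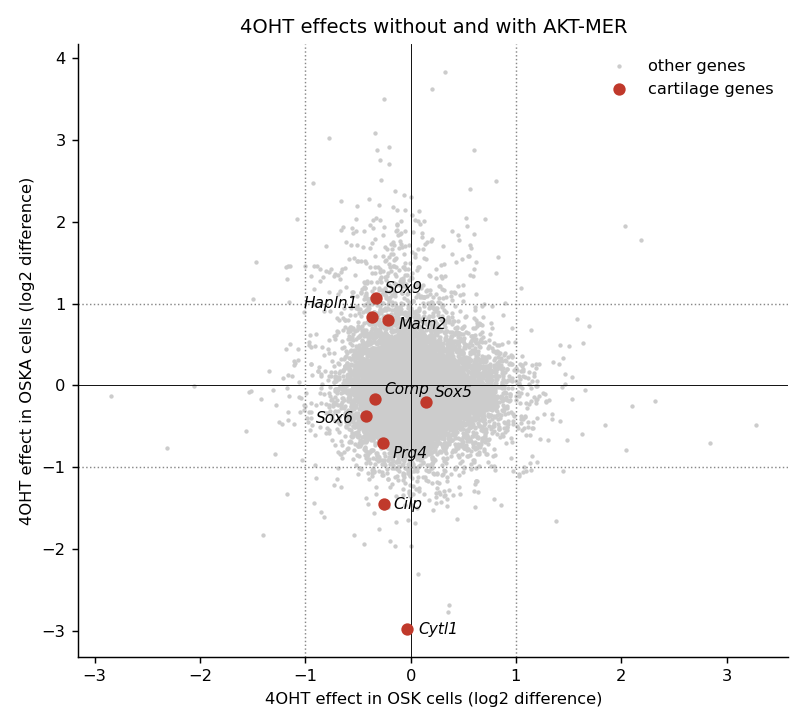
The 4OHT effect in OSKA cells (y axis) against that in OSK cells (x axis), both as log2 differences, for genes above background on all arrays (grey), with 9 of the 10 cartilage genes in red and dotted lines at 2-fold. Acan was not measured on all arrays. Cytl1 lies at -0.03 and -2.98, and all 9 lie within 2-fold on the x axis.

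The effect of 4OHT in each of the OSKA and OSK cultures came from its own pair of arrays, and their difference could be taken for 9 genes. It was at least 2-fold for Sox9 (1.39), Hapln1 (1.20) and Matn2 (1.02), which were higher with 4OHT in OSKA cells and had small values below 0 in OSK cells. For Cytl1 (-2.94) and Cilp (-1.19) it was at least 2-fold in the other direction. Prg4 (-0.45), Sox5 (-0.35), Comp (0.17) and Sox6 (0.04) were within 2-fold. With the normexp correction Hapln1 (0.55), Cilp (-0.77) and, by a narrow margin, Matn2 were below 2-fold in this difference, leaving Sox9 and Cytl1. Over all 19540 genes, 5.28% had a difference of that size, 2.61% upward and 2.67% downward.

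Other genes of cartilage were taken from 5 lists of 65 genes, of which 57 could be measured with 4OHT in OSKA cells. Of these, 7 differed by 2-fold, 5 upward and 2 downward (12.3%, where 2.91% of all genes were), and their median was 0.03. The lists were chosen with earlier results of these data known, so these counts are a description only. In OSK cells 0 of 54 differed by 2-fold, where 0.886% of all genes did. In the counts of the single lists that follow, the shares of all genes are 2.01% higher and 0.901% lower. Fibroblasts also express many of these matrix genes.

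Of the cartilage collagens, 0 of 7 were higher and 1 was lower. Col10a1, the collagen of hypertrophic cartilage, was lower (-1.04), and the highest was Col11a1 (0.53). Col2a1, the main fibrillar collagen of cartilage, had levels of 4.14, 3.79, 3.68 and 3.67 in OSK -4OHT, OSK +4OHT, OSKA -4OHT and OSKA +4OHT. It stayed within 2-fold on all arrays.

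Of the other matrix and secreted proteins, 3 of 14 were higher and 0 lower. Epyc, a small leucine-rich proteoglycan (1.55), Mia, a protein secreted by chondrocytes (1.42), and Vcan, the hyaluronan-binding proteoglycan versican (1.07, other probes 0.83 and 0.87), were higher in AKT-activated cells. Epyc was dim, with levels of -3.81 in OSKA -4OHT and -2.26 in OSKA +4OHT, and was not well above background on the OSK arrays. The lowest of the list was Thbs1, thrombospondin 1 (-0.71). Among the proteoglycan enzymes 1 of 10 was higher and 0 lower. Has2, a hyaluronan synthase, had levels of -0.73, -0.79, -0.22 and 1.09 and was higher by 1.31 with 4OHT in OSKA cells. Chst3, a chondroitin sulfotransferase, was the lowest (-0.25).

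Of the regulators, 1 of 17 was higher and 1 lower. Gdf5, a growth factor of forming joints, was higher (1.46, other probe 1.14), and Runx3 was lower on its brightest probe (-1.03) but not on the other (-0.23). Of the matrix proteases and the inhibitor Timp3, 0 of 9 differed by 2-fold, from Adamts5 (-0.36) to Adamts4 (0.79), the enzymes that cut aggrecan.

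**Figure D5:**
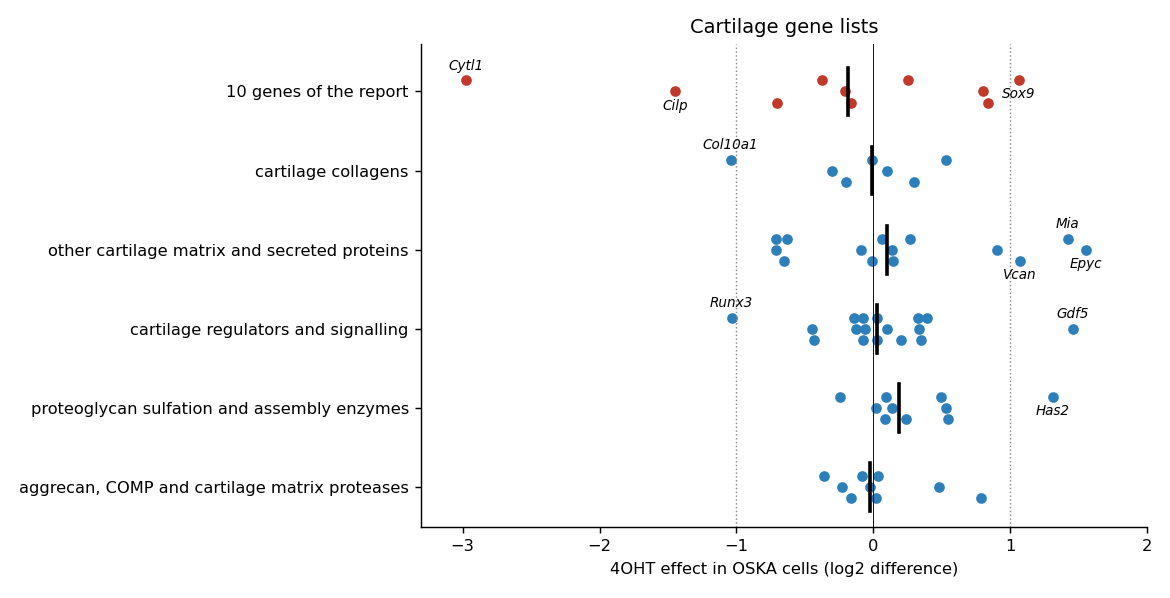
Log2 difference with 4OHT in OSKA cells (x axis) for the 10 genes (red) and for the measured genes of the 5 cartilage lists (blue), with the median of each as a black bar and dotted lines at 2-fold. Genes beyond the dotted lines are named. The list medians lie near 0 while single genes lie on both sides.

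The cells carried the markers of the labelled cell type, since 11 of 11 fibroblast markers were well above background on all arrays, and their summed level (linear, the 75th percentile as 1) was between 1605 and 1813. Of them, 1 of 11 was at least 2-fold higher with 4OHT in OSKA cells (Lum, 1.13), where 2.01% of all genes were, and Pdgfrb was lowest (-0.67). Of the 6 genes taken as chondrocyte markers, Col2a1 and Sox9 were well above background on all arrays, Acan on 3, Col9a1 on 2, and Matn1 and Snorc on 0.

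Markers of 2 neighbouring cell types differed in the same comparison. Both lists were set with earlier results of these data known, so their counts beside the shares of all genes support nothing. Of the 10 osteoblast markers 6 could be measured, and 4 of these were at least 2-fold higher with 4OHT in OSKA cells (2.01% of all genes were), among them Bglap2 (3.83), Bglap3 (3.62), which are near-identical copies, and Phex (1.74), while Spp1 was at -0.35. Bglap, well above background on OSKA +4OHT alone, was at least 5.71-fold higher there. The median of the 6 measured was 1.62. The defining markers Sp7, Ibsp and Dmp1 were well above background on 0 arrays, and the summed level was 27.5, 35.9, 31.2 and 30.7 in OSK -4OHT, OSK +4OHT, OSKA -4OHT and OSKA +4OHT. Without Spp1 the sums were 0.98, 0.876, 0.85 and 7.0. Of the 7 tendon markers 1 was higher (Kera, 3.03) and 1 lower (Scx, -1.06), where 2.01% of all genes were higher and 0.901% lower, with a median of -0.48 and summed levels of 140, 109, 108 and 77.5. Without Egr1 the sums were 33.5, 31.0, 29.2 and 21.0. Their part in the values of the cartilage genes was not tested.

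Other lineages gave no difference of 2-fold in that comparison. Of 7 measured neural and glial markers 0 differed by 2-fold, the lowest being Sox10 (-0.13), and the same was true of 4 endothelial and blood markers, from Cd68 (-0.21) to Kdr (0.23). Of 6 muscle markers 5 were well above background on 0 arrays, and 0 could be measured.

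The genes whose profile over the 4 arrays lay nearest to that of Cytl1 were Nxpe2, Slc6a4, Lad1, Rnf39 and Galnt15. Nearness was the root mean square distance between levels after taking out the mean of each gene, over 14276 genes with a symbol and 4 arrays. It was 0.83 for Nxpe2, 0.96 for Slc6a4, 1.05 for Lad1, 1.11 for Rnf39 and 1.17 for Galnt15, against a median of 2.0 over all genes, and 0 of the 14276 genes lay within 0.5. Nxpe2 had levels of -1.12, -1.47, -2.63 and -4.19 in OSK -4OHT, OSK +4OHT, OSKA -4OHT and OSKA +4OHT. Slc6a4, the serotonin transporter, had -0.58, -1.08, -2.36 and -3.44. As with Cytl1, both were lower in OSKA -4OHT than in the OSK arrays and lowest in OSKA +4OHT, but their 4OHT differences in OSKA cells (-1.56 and -1.08) were smaller than that of Cytl1. With 4 points a gene, likeness of profile is a description only.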

How the data were processed

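Cy3-labelled cRNA from 100 ng of total RNA was hybridised to 4 single-channel Agilent arrays, 1 per group. Per the file headers, the deposited intensity of each spot, on a linear scale, had been corrected for background by Feature Extraction 10.7.3.1 and not normalized between arrays. The authors also deposited a series matrix, which repeats that intensity after rounding (ratio 0.995 to 1.005). From this, log2 intensity minus the 75th percentile of each array was computed. Spots marked as uneven or as outliers (104 to 155 per array) were left out and spots of a probe averaged. Of 55681 probes, 27509 (49.4%) were named through RefSeq accessions (GRCm38.p6, names only), and the rest were named as in the files. Coordinates of probes are those of the files (NCBI37/mm9). A gene was represented by its brightest probe. Differences required both arrays to be well above background, and otherwise a bound was set against the dimmest probe still well above background. The threshold was 2-fold. No test, batch or block applied.

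The 10 genes, the lists and the rule for named genes (all 10, and from each list those at least 2-fold different with 4OHT in OSKA cells, the highest and the lowest, at most 4 for other cell types, and the 5 nearest profiles to Cytl1) were chosen with earlier results of these data known. The comparison with 2 times the software error (median 0.21 for a difference) was added later. Only the steps for differences, bounds and counts were tested on simulated levels. Alternatives were 10 in number, and 1 (Sox5 without its repeat probe) was added after seeing the data. Python 3.11.15, pandas 2.3.3, numpy 2.4.6, R 4.3.3 and limma 3.58.1 (normexp, quantile) were used. The value of 1 gene chosen by the rule is not reported here.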

Additional observations from a re-analysis of the deposited data

Results flagged for a closer look

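For 3 of the 10 genes the 4OHT effects in OSKA and in OSK cells had opposite signs and differed by at least 2-fold, each above 0 in the first and below 0 in the second. Over all 19540 genes, 4.57% had opposite signs and such a difference, 2.2% with the higher value in OSKA. Sox5 (repeat probe, -0.21 and 0.14) and Acan (0.26, and lower as a bound) also had opposite signs, without a measured difference of that size. Their measured values were smaller than 2 times the software error. With spike-in scaling the Sox5 probe was at -0.12 in OSK, so its signs were then alike. For Sox9 the effects were 1.06 and -0.32, a difference of 1.39. For Matn2 they were 0.80 and -0.22, a difference of 1.02. For Hapln1 they were 0.84 and -0.37, a difference of 1.20. With normexp Hapln1 (0.55) and, by a narrow margin, Matn2 were below 2-fold, which left Sox9 (1.07). With 1 array per group the difference between the effects was not tested, and the effects in OSK cells were smaller than 2 times their software error.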

How the results depend on the processing

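The values, counts and medians of the 10 genes were recomputed under 10 alternatives and 1 chosen after seeing the data. Of the counts, medians and Cytl1 values, 185 stayed close to the value reported and 25 did not. Of the values of the other genes, 376 did and 37 did not. No value of these genes counted at 2-fold changed sign. The other cartilage lists, the marker lists, Esr1 and the nearest profiles were not recomputed. Normexp mattered most for 4OHT in OSKA, AKT-MER with 4OHT and the difference of effects. It was not run without its offset, so the background correction and the offset cannot be told apart. For 4OHT in OSK and AKT-MER without 4OHT, spike-in scaling changed more of the values. With normexp (offset 50), Cytl1 was -1.40 for 4OHT in OSKA, -1.64 for AKT-MER without 4OHT, -2.98 with it, and -1.35 for the difference of the 4OHT effects. With normexp and quantile normalization these were -1.40, -1.64, -3.01 and -1.37. Under both, 4OHT in OSKA left 0 genes higher and 1 lower by 2-fold, 1 was lower (and 2 higher) in AKT-MER with 4OHT, and 1 was higher and 1 lower in the difference of effects. With scaling to the E1A spike-ins the median of all genes was -0.27 in OSK, -0.32 in AKT-MER without 4OHT and 0.19 in the difference of effects. It gave the 10 genes a median of -0.52 in OSK and -0.26 in AKT-MER without 4OHT, Cytl1 -0.29 and -2.24 there, and 1 lower gene in the difference of effects. Under that scaling 20.9% of calls in OSK and 10.1% in AKT-MER without 4OHT were higher. In AKT-MER without 4OHT it also turned the small values of Sox5, Acan, Matn2, Hapln1 and Prg4 below 0, and in OSK that of Sox5. Without its repeat probe Sox5 had no measured value, and the median with 4OHT in OSKA was -0.16. At 1.5-fold, 3 genes were higher and 3 lower with 4OHT in OSKA, and 0 were higher and 2 lower in AKT-MER without 4OHT. Among all genes, the share past the threshold in the OSKA comparison was 9.58% without the filter on dim probes, 1.01% with normexp, 4.12% with the mean of all probes and 9.69% at 1.5-fold. Over all alternatives, Sox9 lay between 0.85 and 1.09 and Cilp between -1.48 and -0.95 with 4OHT in OSKA. No paired analysis was possible because each group had 1 array. The number of arrays limits the precision, and Acan, Sox6, Hapln1 and the OSKA +4OHT signal of Cytl1 were close to background.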
